A study of Drosophila melanogaster with 6 samples.

Results

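The Hox genes and their DNA-binding cofactors were followed in tumors of the Drosophila salivary gland imaginal ring. The set held 10 genes, matched by symbol: the 8 Hox genes lab, pb, Dfd, Scr, Antp, Ubx, abd-A and Abd-B, and the cofactor genes exd and hth. The set was chosen by the tumor-against-control values of this same comparison, so those values are given as a description, and nothing is supported with them. Of the 10 genes, 5 had a row in the authors' deposited table of called genes, where the background is 6156 of 9384 tested genes (65.6%), and nothing is read from the members' share. Listed were Ubx, pb, Scr and hth as higher and Antp as lower in tumor, and lab, Dfd, abd-A, Abd-B and exd were not listed.

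RNA sequencing compared 3 control and 3 tumor samples of the imaginal ring, a ring of small diploid cells between the larval salivary gland and its duct, from which the adult gland is built. Control also held abundant transcripts of salivary gland and fat body markers, given below, so it was not ring cells alone. Tumor held transcripts of hemocyte, fat body and tracheal markers, so its levels cannot be taken as those of ring cells alone either. The control genotype was Actts>GFP, and the tumor genotype was Actts>GFP+NICD, in which the intracellular domain of the receptor Notch was expressed as well. Both groups therefore carried the driver (read here as the ubiquitous actin driver), GFP and the temperature-sensitive repressor Gal80ts, and expression was not restricted to the imaginal ring by the driver. Controls were labelled as larvae of the third instar, whereas tumor samples were labelled with 7 days at 18 degrees and then 7 days at 29 degrees. No day or temperature is given for controls, so age, temperature and NICD cannot be told apart. Whether each sample was 1 animal or a pool is not stated, and the spread behind the authors' p-values may be technical.

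Hox genes encode homeodomain transcription factors that give body segments their identity along the head-to-tail axis, and in flies they lie in 2 clusters on chromosome arm 3R, the Antennapedia and bithorax complexes. Their homeodomains bind similar DNA, and the TALE homeodomain proteins Extradenticle (exd) and Homothorax (hth) bind beside them and sharpen their choice of sites, Homothorax also bringing Extradenticle into the nucleus. In the embryo Scr, with exd and hth, specifies the salivary gland, while posterior Hox genes repress more anterior ones in many segments.

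The values are the authors' own comparison, with no value per sample, so fold changes are given without an error and the depth per library is unknown. A positive log2 fold change means higher in tumor, and CPM is counts per 1000000 reads. A group level in CPM was estimated from the authors' deposited mean CPM and fold change, taking the mean as the average of both groups. Such estimates rest on the authors' scaling and are not shares of the reads. Because the tissue was sequenced in bulk, a change in the number of cells of a type and a change in RNA per cell cannot be told apart.

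The bithorax complex held the listed Hox gene with the largest difference. Ubx, which specifies the posterior thorax and the first abdominal segment and turns a wing into a haltere, had an estimated level of 1.40 CPM in control and 1595 CPM in tumor, from the authors' deposited values. The authors' deposited table gave it a log2 fold change of 10.15, a 1139-fold difference (adjusted p = 1.44e-05, from the authors' test across all genes). Per kilobase of transcript, its estimated level ranked at place 5400 of 6111 listed genes with a known length in control and at place 57 in tumor. An exon of Ubx overlaps the antisense gene asRNA:PS4, and with no strand setting stated their reads cannot be told apart.

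By log2 fold change Ubx ranked at place 10 of the 6156 genes in the authors' deposited table. The 9 genes with a larger value had mean levels between 2.88 and 626 CPM per kilobase, and 5 of them were fitted at 0 in 1 group, whereas the mean of Ubx was 204 CPM per kilobase. Of the 330 other genes with a mean per kilobase at least that of Ubx, 294 were lower in tumor and 36 higher. The largest log2 fold change among those 330 in the authors' deposited table was 10.27, for CG13748. Rises of this size at such a mean level were few.

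**Figure D1:**
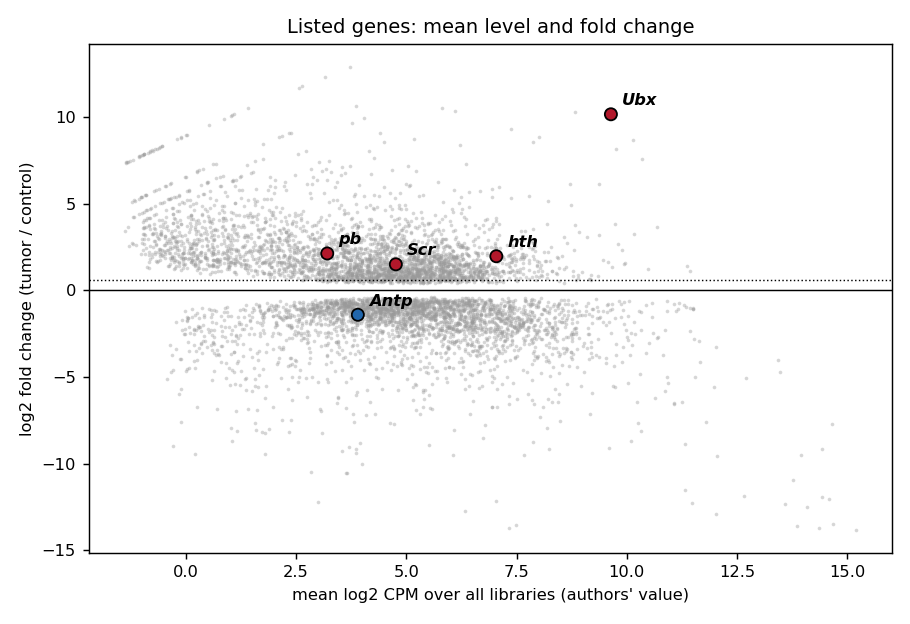
Each point is 1 of the 6156 listed genes, with the mean log2 CPM over all libraries on the x axis and the log2 fold change, tumor over control, on the y axis; the dotted line is the median of all listed genes, 0.57, and genes with small differences are missing because only called genes are listed. Ubx stands at 10.15 in a part of the plot with few other genes, pb, Scr and hth lie between 1.50 and 2.12, and Antp lies at -1.41, all on the authors' scaling.

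The other Hox genes of the bithorax complex, abd-A and Abd-B, which pattern the abdomen, were not listed. A gene missing from the authors' deposited table was either tested and not called or not tested, so absence of a row gives no level. From Ubx to Abd-B the RefSeq annotation orders 16 genes, 6 of them protein-coding, and Ubx was the only one with a row in the authors' deposited table. Without a row were lncRNA:bxd, a noncoding gene in the regulatory region upstream of Ubx, the sugar transporter gene Glut3 and the long noncoding gene lncRNA:iab8. Outside the complex, the authors' deposited table gave modSP, a serine protease gene of Toll signaling that lies next to Ubx, as 3.51-fold higher and CG14907 as 1.64-fold higher.

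In the Antennapedia complex the listed Hox genes differed in direction. Scr, which specifies the labial and first thoracic segments and the embryonic salivary gland, had an estimated 14.2 CPM in control and 40.1 CPM in tumor. By the authors' deposited table its log2 fold change was 1.50, or 2.83-fold higher (adjusted p = 0.0027, authors' test across all genes). pb, which directs the adult mouthparts together with Scr, had an estimated 3.45 CPM in control and 15.03 CPM in tumor. For pb the authors' deposited table gave a log2 fold change of 2.12, or 4.36-fold higher, with the weakest support of the listed members (adjusted p = 0.028, authors' test across all genes).

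Antp, which specifies the second thoracic segment and represses antennal fate in the leg, was the member listed as lower. From an estimated 21.7 CPM in control it stood at 8.17 CPM in tumor, which the authors' deposited table gave as a log2 fold change of -1.41, or 2.66-fold lower (adjusted p = 0.0105, authors' test across all genes). This direction depends on the scaling: with the groups scaled to equal estimated sums over the listed genes, Antp had a log2 fold change of 0.39. Those sums cover called genes only. Within the control sum of 1224976 CPM, salivary gland markers held 278062 CPM and fat body markers 193772 CPM. In tumor these markers held 164 and 1616 CPM. Equal sums are thus imposed across a large difference in these transcripts, and which scaling is right was not tested. Antp overlaps CG46458, a gene on the same strand that was not listed, so reads may be divided between them. The head genes lab and Dfd, which act in the intercalary segment and in the mandibular and maxillary segments, were not listed.

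From lab to Antp the RefSeq annotation orders 43 genes, of which 5 had a row in the authors' deposited table, and 24 of the 43 are noncoding, several of them tRNA or microRNA genes. Besides pb, Scr and Antp, these were Ama, which encodes a secreted immunoglobulin-family adhesion protein, and the noncoding gene lncRNA:CR45593. In the authors' deposited table Ama was 5.62-fold higher (adjusted p = 6.41e-05, authors' test) and lncRNA:CR45593, named after its value was seen, 6.83-fold higher. The embryonic homeobox genes zen, zen2, bcd and ftz, which lie between the Hox genes, were not listed, and neither were the Ccp84A cuticle genes.

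**Figure D2:**
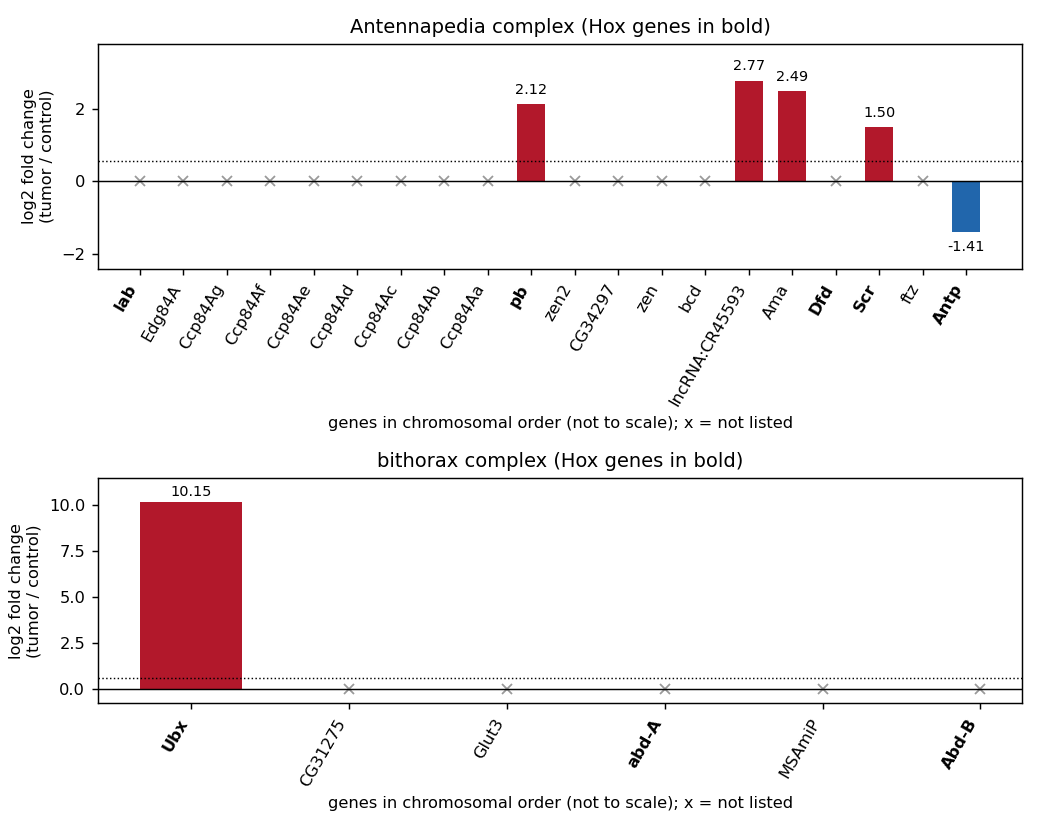
Log2 fold change, tumor over control, on the y axis, for the protein-coding genes and the listed noncoding gene of the Antennapedia complex (top) and the protein-coding genes of the bithorax complex (bottom), with genes in chromosomal order on the x axis, not to scale; crosses mark genes with no row and the dotted line the median of all listed genes, 0.57. In the bithorax complex only Ubx has a bar, at 10.15. In the Antennapedia complex Antp, at -1.41, is the one bar below 0, on the authors' scaling (0.39 with the groups scaled to equal sums over called genes only).

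Of the cofactor genes, hth was listed as higher and exd had no row. For hth an estimated 53.8 CPM in control stood against 210 CPM in tumor, and the authors' deposited table gave a log2 fold change of 1.96, or 3.90-fold higher (adjusted p = 0.0109, authors' test across all genes). An exon of hth overlaps the unlisted antisense gene asRNA:CR44018. No level can be stated for exd, which encodes the partner that Homothorax carries into the nucleus.

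In all, 4 members were listed as higher and 1 as lower at an adjusted p below 0.05, with a median log2 fold change of 1.96 over the 5 listed members. Of all tested genes, the authors called 34% as higher and 31.6% as lower. The 5 listed members each differed at least 2-fold. Measured from the median log2 fold change of all listed genes, 0.57, the differences were 9.58 for Ubx, 1.55 for pb, 1.39 for hth, 0.93 for Scr and -1.98 for Antp. That median is over called genes only, none of them below 0.41 in size. The 3228 tested genes that were not called have no value, so 0.57 is not the median of all tested genes. Scaling the groups to equal estimated sums over the listed genes, chosen after seeing the data, adds 1.80 to every log2 fold change, which gave 11.95 for Ubx, 3.93 for pb, 3.77 for hth, 3.30 for Scr and 0.39 for Antp. Under that scaling 79.8% of all listed genes were higher, against 51.8% as deposited, so the direction of Antp turned and those of the other 4 did not.

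The order of the members by level, expressed per kilobase of transcript, differed between the groups. In control the order from high to low was hth, Antp, Scr, pb and Ubx, with estimates of 12.7, 4.66, 3.43, 0.93 and 0.36 CPM per kilobase. In tumor it was Ubx, hth, Scr, pb and Antp, with estimates of 409, 49.6, 9.69, 4.05 and 1.75 CPM per kilobase. Antp thus went from the second to the last place and Ubx from the last to the first, and hth, Scr and pb kept their order among themselves. Which neighbours in these orders differ beyond the spread between samples cannot be given without values per sample.

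**Figure D3:**
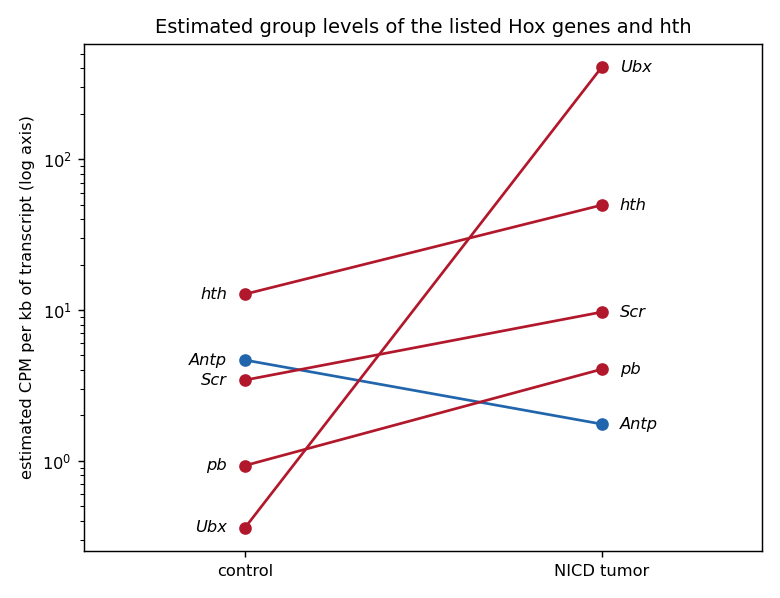
Estimated level in CPM per kilobase of median transcript length on a log y axis, for control and tumor on the x axis, with 1 line per listed member, red where higher and blue where lower in tumor; there are no error bars because no value per sample was used. The line of Ubx runs from 0.36 to 409, that of Antp runs down from 4.66 to 1.75 on the authors' scaling, and those of hth, Scr and pb do not cross each other.

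The 4 listed Hox genes together had an estimated 9.37 CPM per kilobase in control and 424 in tumor. Ubx made up 3.83% of that sum in control and 96.3% in tumor. Without Ubx the control sum was 9.01 CPM per kilobase and the tumor sum 15.5. By these estimates, listed Hox transcripts in control were mostly those of Antp and Scr, and in tumor mostly those of Ubx.

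The spread between samples cannot be seen directly, and the authors' p-values depend on fold change and level as well as on it. Listed genes of similar size and level (absolute log2 fold change within 0.5 and mean log2 CPM within 1) were taken beside each member. For hth, 98.4% of 387 such genes had a smaller adjusted p in the authors' deposited table, and their median adjusted p was 0.000178. For pb the share was 98.9% of 348 genes, for Antp 88.1% of 833 and for Scr 75.6% of 928. The adjusted p of hth and of pb was thus larger than that of nearly all listed genes in their windows. Genes of similar size and level with an adjusted p of 0.05 or more have no row and are missing from the windows. A member near that limit, as pb at 0.028, therefore gets a high share in any case, and nothing is read from the shares. Genes within a window still differ in fold change and level, so these shares do not measure the spread between samples. Only 1 gene was comparable to Ubx, so no such share is given for it.

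Transcript length went along with direction over the whole table, and the listed members are long. Median transcript lengths were 3.71 kb for pb, 3.90 kb for Ubx, 4.14 kb for Scr, 4.23 kb for hth and 4.67 kb for Antp, all 5 above the upper quartile of length of the listed genes (3.14 kb). Above it, 90.3% of 1528 genes in the authors' deposited table were higher and the median log2 fold change was 1.51, against 22.0% and -1.46 below the lower quartile. Among these 1528 long transcripts Ubx ranked first by log2 fold change, pb at place 471, hth at place 539 and Scr, at 1.50, at place 774, near the middle. Antp was among the 148 of them listed as lower, at place 70 from the bottom. The part of transcript length in these differences was not tested.

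**Figure D4:**
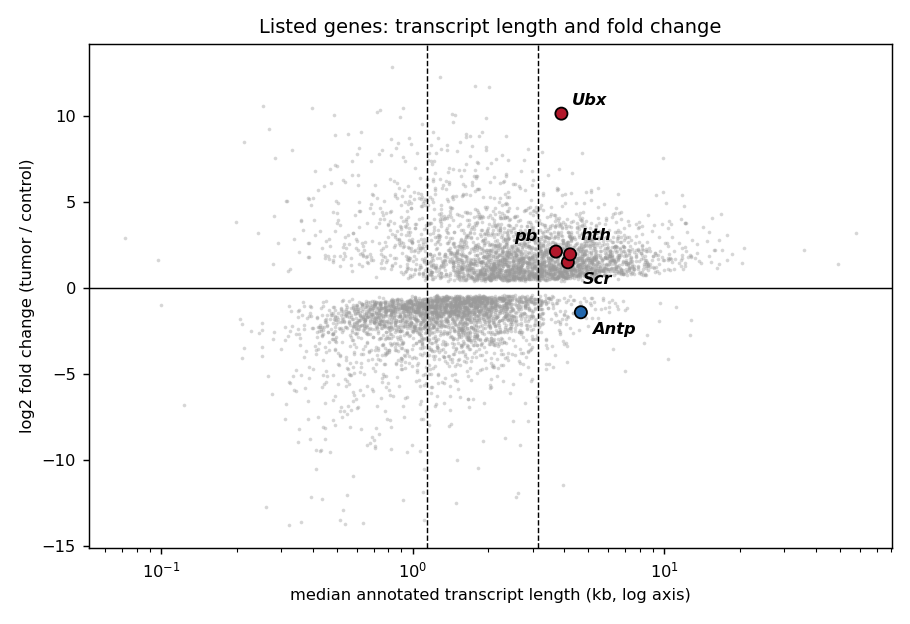
Median annotated transcript length in kb on a log x axis and log2 fold change, tumor over control, on the y axis, for the listed genes with a known length (grey) and the 5 listed members (red higher, blue lower); dashed lines mark the lower and upper quartile of length, 1.14 and 3.14 kb. Right of the upper quartile most points lie above 0, Ubx is above all of them at 10.15, and Antp lies below 0 at -1.41 on the authors' scaling.

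Genes that work with or control Hox genes were read against the same background. Over 9 related lists with 139 distinct genes, 63 had a row in the authors' deposited table, of which 56 were higher and 7 lower (median log2 fold change 1.93). Of the 139, 45.3% had a row and 40.3% were higher, beside 65.6% called and 34% higher among all tested genes. How many genes of each list were tested is unknown, so these shares have unlike bases. Nothing particular to the lists is read from them, here or per list below. Among listed genes only, 51.8% were higher with a median of 0.57, and 40 of the 63 have transcripts above the upper quartile of length. With the groups scaled to equal sums, sage and CrebA were the 2 of the 7 that stayed lower. These lists were written with earlier results of this comparison known, and rare transcripts entered the table only where they were high in 1 group.

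Among 10 Hox collaborators, transcription factors that act with Hox proteins on shared enhancers, 4 (40%) were listed, all as higher. Of all tested genes 65.6% were called, and 34% were called as higher. All 4 have transcripts above the upper quartile of length, and 2 of the 4 had an adjusted p below 0.01 in the authors' test. The authors' deposited table gave the nuclear receptor gene ftz-f1 as 5.78-fold higher, the zinc-finger genes disco-r and disco, which act with Dfd and Scr in the head, as 4.66-fold and 4.10-fold, and the head gene cnc as 2.14-fold. The trunk gene tsh, its paralog tio, en, inv, slp1 and slp2 were not listed. Of 5 other TALE homeobox genes, the authors' deposited table gave vis as 9.23-fold higher, at an estimated 0.13 CPM in control and 1.22 CPM in tumor, and achi as 1.65-fold lower. vis and achi are closely similar neighbours that can share reads, so each value is uncertain. The Iroquois genes ara, caup and mirr were not listed.

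Genes that depend on Scr in the embryonic salivary gland were divided in direction. Of 10 such genes 7 (70%) were listed, 4 as lower and 3 as higher (median log2 fold change -1.64). Among all tested genes 65.6% were called, 34% as higher and 31.6% as lower. In the authors' deposited table the secretory cell regulators sage and CrebA were 45.4-fold and 6.39-fold lower, while the duct and tracheal gene trh was 8.63-fold and eyg 3.87-fold higher. The pioneer factor gene fkh was not listed.

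Of 15 genes known to be controlled by thoracic Hox proteins 8 (53.3%) were listed, all as higher (median log2 fold change 2.39). Among all tested genes 65.6% were called, and 34% were called as higher. Of the 8, 5 had an adjusted p below 0.01 and 4 lay above the lower quartile of mean level. Transcripts of 6 of the 8 are above the upper quartile of length, where 90.3% of listed genes were higher. In the authors' deposited table the Wnt ligand gene wg was 14.2-fold higher, the glypican gene dally 5.57-fold, the BMP ligand gene dpp 4.97-fold and its receptor gene tkv 3.19-fold. Dll, the leg gene that Ubx represses in the abdomen, was not listed. Of 9 genes controlled by abdominal Hox proteins 5 (55.6%) were listed, all as higher (median log2 fold change 4.12), and 2 of the 5 have transcripts above that quartile of length. The authors' deposited table gave rho, which activates EGF receptor ligands, as 22.6-fold higher, the cell death gene rpr as 17.4-fold, the abdominal pigmentation gene bab2 as 7.37-fold and the homeobox gene ct as 2.82-fold. Many of these genes also respond to signals other than Hox proteins, and nothing about Hox activity is read from these counts.

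Of 47 homeobox genes outside the clusters 13 (27.7%) were listed, and the 13 were higher (median log2 fold change 2.43). Among all tested genes 65.6% were called. How many of the 47 were tested is unknown, so these 2 shares cannot be compared. Transcripts of 8 of the 13 are above the upper quartile of length. Above the lower quartile of mean level 6 of the 13 remained, and at an adjusted p below 0.01 there were 8. In the authors' deposited table the zinc-finger homeobox genes zfh2 and zfh1 were 13.2-fold and 9.55-fold, the POU gene vvl 7.82-fold and NK7.1 5.56-fold higher. Each of these 4 had an estimated control level of 3.56 to 4.73 CPM and a tumor level of 19.8 to 58.4 CPM.

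Of 20 Polycomb group genes, which keep Hox genes repressed, 12 (60%) were listed, 10 as higher and 2 as lower (median log2 fold change 0.93). Of the 10, 5 were at least 2-fold higher. Among all tested genes 65.6% were called, 34% as higher and 31.6% as lower. Among Polycomb repressive complex 1 genes, the authors' deposited table gave ph-d as 4.46-fold, Psc as 3.80-fold, Su(z)2 as 3.48-fold and ph-p as 3.44-fold higher, and ph-d and ph-p are closely similar tandem copies that can share reads. Pc and E(z), the reader and writer of the repressive histone mark, were not listed. Of 18 trithorax group genes, which keep Hox genes active, 11 (61.1%) were listed, all as higher (median log2 fold change 1.64). How many genes of either group were tested is unknown, so nothing is read from these shares. The authors' deposited table gave the histone methyltransferase complex gene ash2 as 4.01-fold, the BET protein gene fs(1)h as 3.64-fold, and the Brahma complex genes Bap111 and brm as 2.29-fold and 2.25-fold higher. In both groups 9 of the listed genes have transcripts above the upper quartile of length.

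**Figure D5:**
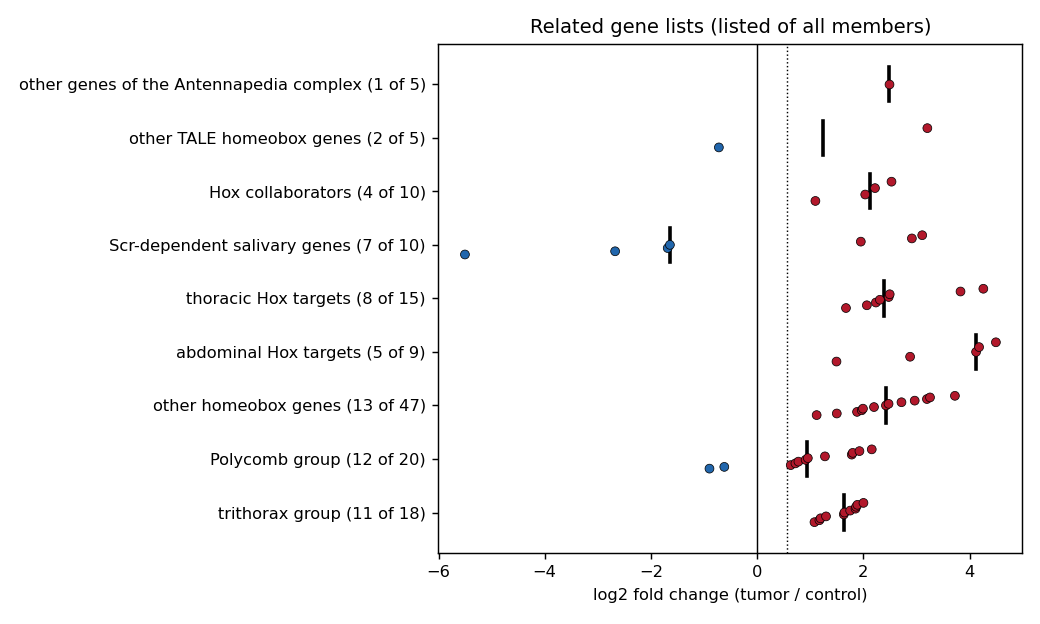
Log2 fold change, tumor over control, on the x axis for each listed gene of the 9 related lists, named on the y axis with the number listed of all members; black bars are medians of the listed genes, the dotted line is the median of all listed genes, 0.57, and colors give the direction. The lists of thoracic and abdominal Hox targets, collaborators, other homeobox genes and the trithorax group hold points to the right of 0 only, and the Scr-dependent salivary genes lie on both sides.

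The tissue labels were compared with marker genes. All 11 listed salivary gland markers (of 12) were lower in tumor, from an estimated sum of 278062 CPM in control to 164 CPM in tumor, so secretory cell transcripts were abundant in control. The 8 listed fat body markers (of 9) had a control sum of 193772 CPM and a tumor sum of 1616 CPM, also all lower, as were the 9 listed muscle markers (of 10; 8 of them with the groups scaled to equal sums), with sums of 3203 and 361 CPM. In the other direction, 9 of 11 hemocyte markers were listed, all higher, with a sum of 42.6 CPM in control and 1703 CPM in tumor, and all 7 matched tracheal markers were higher, from 149 to 790 CPM. Of 8 neuron and glia markers 5 were listed, 4 as higher and Syt1 as lower, with sums of 240 CPM in control and 217 CPM in tumor, or 87.6 and 189 CPM without Syt1. Of 10 wing and leg disc markers only vg and salm were listed, with sums of 1.44 CPM in control and 14.3 CPM in tumor. None of the listed markers was fitted at 0 in either group. Control levels of the members therefore cannot be taken as levels in imaginal ring cells alone. The same holds for tumor levels, since the hemocyte and fat body sums in tumor were near the estimate for Ubx, 1595 CPM. The part of these tissues in the Hox values was not tested.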

How the data were processed

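RNA from 3 control and 3 tumor samples was grouped by sample title. The submitters' processing notes name featureCounts and DESeq2, whereas the column names are those of edgeR, so which tool made the values is not settled. Not given in the sources used here are the aligner, genome build, annotation and strand setting. Per the file headers, the authors deposited for each gene a shrunken and an unshrunk log2 fold change (the latter a score, since values over 100 in size mark a group fitted at 0), a mean log2 CPM and a p-value with its adjusted p. The deposited rows are the calls under the authors' heading 1.2, of 9384 tested genes. What this heading sets is not settled here. If it is a fold change limit within the test, each adjusted p is for a change beyond that limit, not for any change. The largest adjusted p was 0.0499. As the values are not per sample, no test was run, and the authors' adjusted p across all genes was used.

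Group levels were estimated as described. Over the listed genes the control estimates add up to 1224976 CPM and those of tumor to 351471 CPM. Transcript length was the median over transcripts in the BDGP6 annotation (Ensembl release 115, known for 6111 of 6156 genes), and gene order came from RefSeq (Release 6). Their build may differ from the authors', so no coordinates are printed. Of 204 list symbols 2 were not matched.

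The members and lists were chosen with earlier results of these data known. Genes were named by rule: all members, and up to 4 genes per related list with the smallest adjusted p. Names of unlisted genes, neighbours in the complexes and CG13748 were added after the values were seen, as were the windows of similar genes and the length classes. Level estimates were tested on simulated data. Python 3.11.15, pandas 2.3.3 and numpy 2.4.6 were used.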

Additional observations from a re-analysis of the deposited data

How the results depend on the processing

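At an adjusted p below 0.01 in place of 0.05, 2 members (Ubx and Scr) remained listed as higher and 0 as lower, since Antp (0.0105), hth (0.0109) and pb (0.028) lie above that limit. The authors' table holds only genes below 0.05, so an unadjusted count says no more, and no other tool could be run without values per sample. With a minimum of 2-fold, or with genes under the lower quartile of the mean level (log2 CPM 3.06) left out, the counts stayed at 4 higher and 1 lower. Over the related lists together, 56 genes were higher and 7 lower; the 2-fold minimum left 51 and 4, an adjusted p below 0.01 left 44 and 7, and the filter on mean level 42 and 7. Per list, the higher counts moved by over 1.5 times for collaborators (4 to 2), thoracic targets (8 to 5) and other homeobox genes (13 to 8) at 0.01, for thoracic targets (8 to 4), other homeobox genes (13 to 6) and other TALE genes (1 to 0) with the filter, and for the Polycomb group (10 to 5, and 2 to 0 lower) at 2-fold, where other TALE genes went from 1 to 0 lower. With the groups scaled to equal estimated sums, chosen after seeing the data, Antp turned to 0.39. Those sums cover called genes only, and abundant salivary gland and fat body transcripts are in the control sum. The unshrunk log2 fold changes differed from the shrunken ones by at most 0.0035 in the 5 listed members. With the longest transcript in place of the median length, the order of levels within each group did not change. No paired analysis was possible because the deposited values are not per sample, and leaving out each replicate was not run for the same reason. Depth is unknown, so no detection limit can be given for the unlisted members.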
